A study of Mus musculus with 24 samples.

Results

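The genotype difference in the rmCIRP response is, for each gene, the log2 change from PBS to rmCIRP in pulmonary fibroblast cultures labelled TLR4-/- minus the same change in wild type (WT) cultures. It was fitted for 16258 genes and rests on 12 of the 24 RNA-Seq libraries of the series, chosen by their labels: 3 each of WT PBS, WT rmCIRP, TLR4-/- PBS and TLR4-/- rmCIRP. A negative difference means that the rmCIRP response was lower in TLR4-/- than in WT cultures, and a positive one that it was higher. Both genotypes were C57BL/6 mice aged 4 to 8 weeks, the TLR4-/- strain coming from a commercial supplier. Each group of fibroblasts came from a pool of 3 to 4 lungs and was used at passages 3 to 6, kept overnight in serum-reduced Opti-MEM and then exposed for 24 h to 1 μg/ml recombinant mouse cold-inducible RNA-binding protein (rmCIRP) or to phosphate-buffered saline (PBS). The other 12 libraries carried 2 ng/ml rmTGF-Beta1 as well, in the same 4 combinations of genotype and rmCIRP, and give the same contrast in a second set of libraries. All 24 cultures shared the Opti-MEM step, and no source says whether the 3 libraries of a group came from separate pools, so p-values measure only the spread between these libraries, which may be technical.

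CIRP is an RNA-binding protein of the nucleus that stressed cells can release, and outside the cell it acts as a danger signal. Toll-like receptor 4 (TLR4) with its partner MD-2 (gene Ly96) is the receptor best known for sensing bacterial lipopolysaccharide. It signals through the adaptor MyD88 to NF-kB and AP-1, which drive cytokine and chemokine genes, and through the adaptor TRIF to IRF3 and type I interferon, which in turn drives the interferon-stimulated genes. Lung fibroblasts make collagen and elastic fibres, contract, and can also secrete cytokines when a danger signal reaches them.

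The 12 libraries held 31628081 to 35651924 reads on genes. Tlr4 mRNA itself was not lower in the libraries labelled TLR4-/-, at 891 to 927 normalized counts with PBS and 858 to 941 with rmCIRP against 718 to 802 and 725 to 771 in WT. A gene count does not show which exons the reads covered, so it neither checks nor refutes the label, and the name TLR4-/- is kept here as the label gives it. Xist, the RNA of the inactive X chromosome, was at 1.92 to 3.00 with PBS in WT and 4619 to 5055 in TLR4-/-, and Ddx3y, a Y-linked gene, was at 3509 to 3708 and 2202 to 2395, so the mix of male and female cells also differed, and cannot be told apart from genotype in any comparison between the genotypes. Summed counts of 7 fibroblast markers ran from 469963 to 541467 in WT PBS and both TLR4-/- conditions and from 398977 to 437680 in WT rmCIRP. Summed counts of 12 macrophage markers were 89774 to 97895 in WT PBS and 75739 to 80512 in WT rmCIRP, against 342336 to 392283 in TLR4-/- PBS and 330630 to 376035 in TLR4-/- rmCIRP, so RNA of these markers was higher in TLR4-/- cultures without rmCIRP as well. In these bulk libraries fewer cells of a type and less RNA per cell cannot be told apart. The 4 lung epithelial markers summed to at most 91.1, and 3 lymphocyte markers to at most 12.9 with Cd3e at 0 in all 3 groups other than TLR4-/- PBS. The 3 endothelial markers summed to 235.7 to 829, with 559 to 829 in WT PBS and 273 to 358 in TLR4-/- PBS. A wider list of 17 endothelial markers went the other way, from 5928 to 6573 in WT PBS and 7287 to 7604 in TLR4-/- PBS. Wider lists of 19 markers each had 328 to 423 and 651 to 753 for lung epithelium. For lymphocytes and natural killer cells they had 217 to 280 and 420 to 471.

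The genotype difference was called (edgeR quasi-likelihood test, Benjamini-Hochberg adjusted p under 0.1) for 5113 genes, 31.4% of the genes tested. Of these, 2333 had a lower response in TLR4-/- cultures (14.3% of the genes tested) and 2780 a higher one (17.1%), a split that turned to slightly more lower genes under several settings. The differences were at least 1 on the log2 scale for 627 lower genes (3.86%) and 370 higher genes (2.28%). Over all genes tested the median difference was 0.03, and its 5th and 95th percentiles were -0.97 and 0.81. Within WT, rmCIRP changed 7130 genes against PBS (43.9%), 3918 lower (24.1%) and 3212 higher (19.8%), a split that depended on the setting: it was 4935 and 2637 when libraries were scaled by their totals alone, 3578 and 3529 with a mean count of at least 10, and 3663 and 3778 when only the 6 WT libraries were fitted. Within TLR4-/-, the same test called 0 genes, with 1136 at an unadjusted p under 0.05 (6.99%) 32 called by DESeq2, 149 with no filter on low counts, 29 when only these 6 libraries were fitted and 9 without TLR4-/- rmCIRP replicate 3. The 5th to 95th percentile of the response ran from -0.73 to 0.87 in WT and from -0.31 to 0.33 in TLR4-/-. The size of the WT response had a median of 0.39 among the lower genes and 0.37 among the higher ones, and that of the TLR4-/- response 0.06 and 0.05. The difference and the responses share their libraries, so these sizes describe the calls and do not test them. The TLR4-/- response was the larger of the 2 in 184 of the 2333 and in 178 of the 2780. Without rmCIRP, 3765 genes were higher in TLR4-/- than in WT (23.2%) and 3900 lower (24.0%). In the gene lists that follow, a count of 6 or fewer members called in one direction moved by over 1.5 times in several lists when a library was left out, and larger counts that did so are given with that library.

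**Figure D1:**
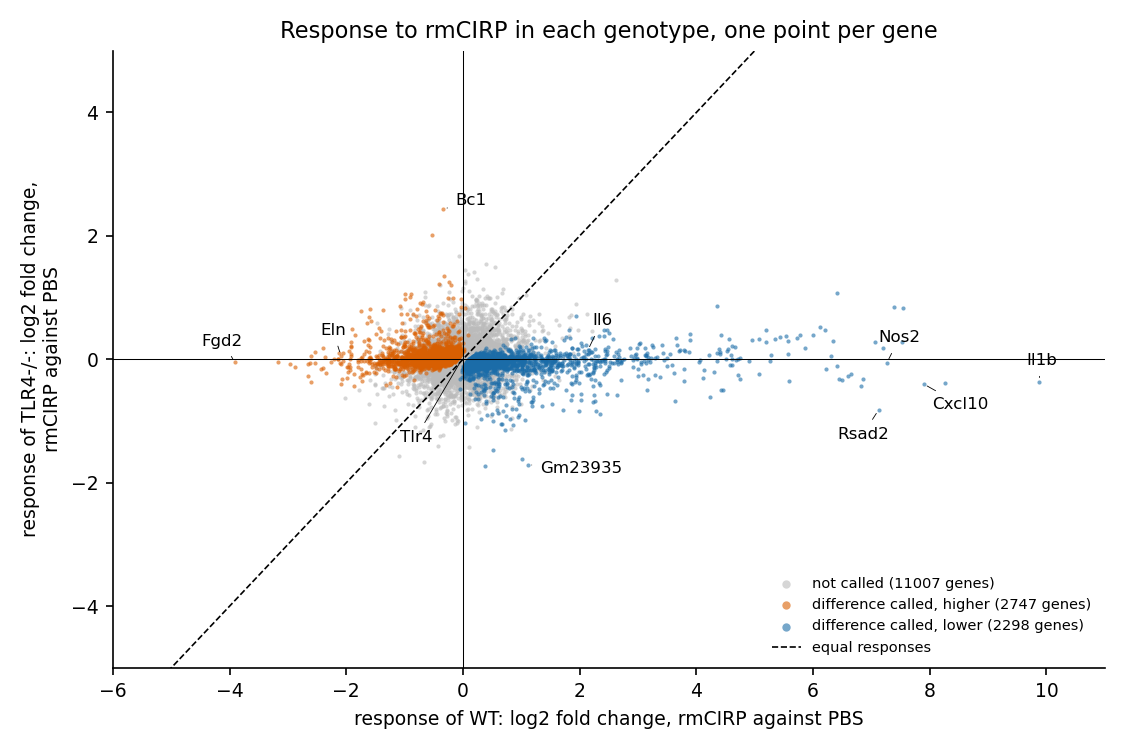
Each point is one of 16052 genes, with the log2 response to rmCIRP in WT on the horizontal axis and in TLR4-/- on the vertical axis, coloured by whether the genotype difference was called lower, higher or not called. The called genes spread along the horizontal axis, while the middle 90% of the TLR4-/- responses lie between -0.31 and 0.33, and 206 genes with a condition at 3 counts or fewer in each library are not drawn.

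Genes whose response was much lower in TLR4-/- were led by secreted mediators and antiviral proteins. Il1b, the cytokine interleukin-1 beta, had 15.4, 14 and 21.9 normalized counts in the 3 WT PBS libraries and 15923, 15495 and 16809.7 in the 3 WT rmCIRP libraries, while TLR4-/- had 74.1, 79.5 and 64.7 with PBS and 50.1, 57.5 and 60.9 with rmCIRP. All WT rmCIRP libraries stood above the other 9, and in TLR4-/- the rmCIRP libraries lay below the PBS libraries, giving a difference of -10.23 ± 0.33 (SE, log2, adjusted p = 1.21e-15). Ccl5, a chemokine for T cells and monocytes, went from 15.4, 12 and 9.37 to 3635, 3605 and 4275 in WT and stood at 14.8, 11.7 and 33.8 with PBS and 12.8, 18.6 and 14.7 with rmCIRP in TLR4-/-, where the 2 conditions overlapped. Its difference was -8.65 ± 0.50 (SE, adjusted p = 2.9e-11). Nos2, the inducible nitric oxide synthase, had 10.6, 7.99 and 12.5 in WT PBS, 1462, 1498 and 1867 in WT rmCIRP, 17.8, 10.6 and 11 in TLR4-/- PBS and 15.7, 13 and 8.85 in TLR4-/- rmCIRP. The TLR4-/- conditions again overlapped, and the difference was -7.33 ± 0.56 (SE, adjusted p = 1.48e-09). Il12b, the p40 subunit shared by IL-12 and IL-23, was at 0 in all 3 WT PBS libraries and at 1227, 893 and 1093 in WT rmCIRP, a rise of at least 8.48 on the log2 scale against a floor of 3 counts per library. Of the 6 TLR4-/- libraries, 5 held 0 Il12b counts and PBS replicate 2 held 3, and without that library the difference lost its call.

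Genes whose response was much higher in TLR4-/- were ones that rmCIRP lowered in WT, most of them at low counts. Fgd2, a guanine nucleotide exchange factor of myeloid cells, fell in WT from 28.9, 30 and 22.9 to 0, 1.03 and 3.95, and in TLR4-/- it stood at 233, 253 and 264 with PBS and 276, 222 and 224 with rmCIRP. Its difference was 3.86 ± 0.50 (SE, adjusted p = 5.2e-06), the 2 TLR4-/- conditions overlapping. Cnr2, the cannabinoid receptor of immune cells, went from 37.5, 62.9 and 42.7 to 3.18, 3.09 and 0.988 in WT, a fall of at least 3.96 on the log2 scale against 3 counts per library, and stayed between 208 and 261 in TLR4-/-. Susd3, a sushi-domain membrane protein, went from 36.6, 46.9 and 48.9 to 1.06, 1.03 and 2.96 in WT, a fall of at least 3.84, and lay between 269 and 332 in TLR4-/-. Both genes kept their call whichever library was left out. Rab3il1, an exchange factor for Rab GTPases, had 204 to 278 in WT PBS, 28.6 to 34 in WT rmCIRP and 1055 to 1273 in TLR4-/- (difference 2.89 ± 0.21, SE). The lymphoid and myeloid membrane protein Lrmp (3.12 ± 0.28) and the signalling regulator Rgs18 (2.75 ± 0.47) had the same shape, with WT rmCIRP below the other 9 libraries. Bc1 was an exception: this small noncoding RNA of neurons was at 1309, 1226 and 768 and 469, 973 and 1171 in WT, conditions that overlapped, and at 243, 160.0 and 181 with PBS and 689, 1701 and 746 with rmCIRP in TLR4-/- (2.77 ± 0.64, SE, adjusted p = 0.00259).

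**Figure D2:**
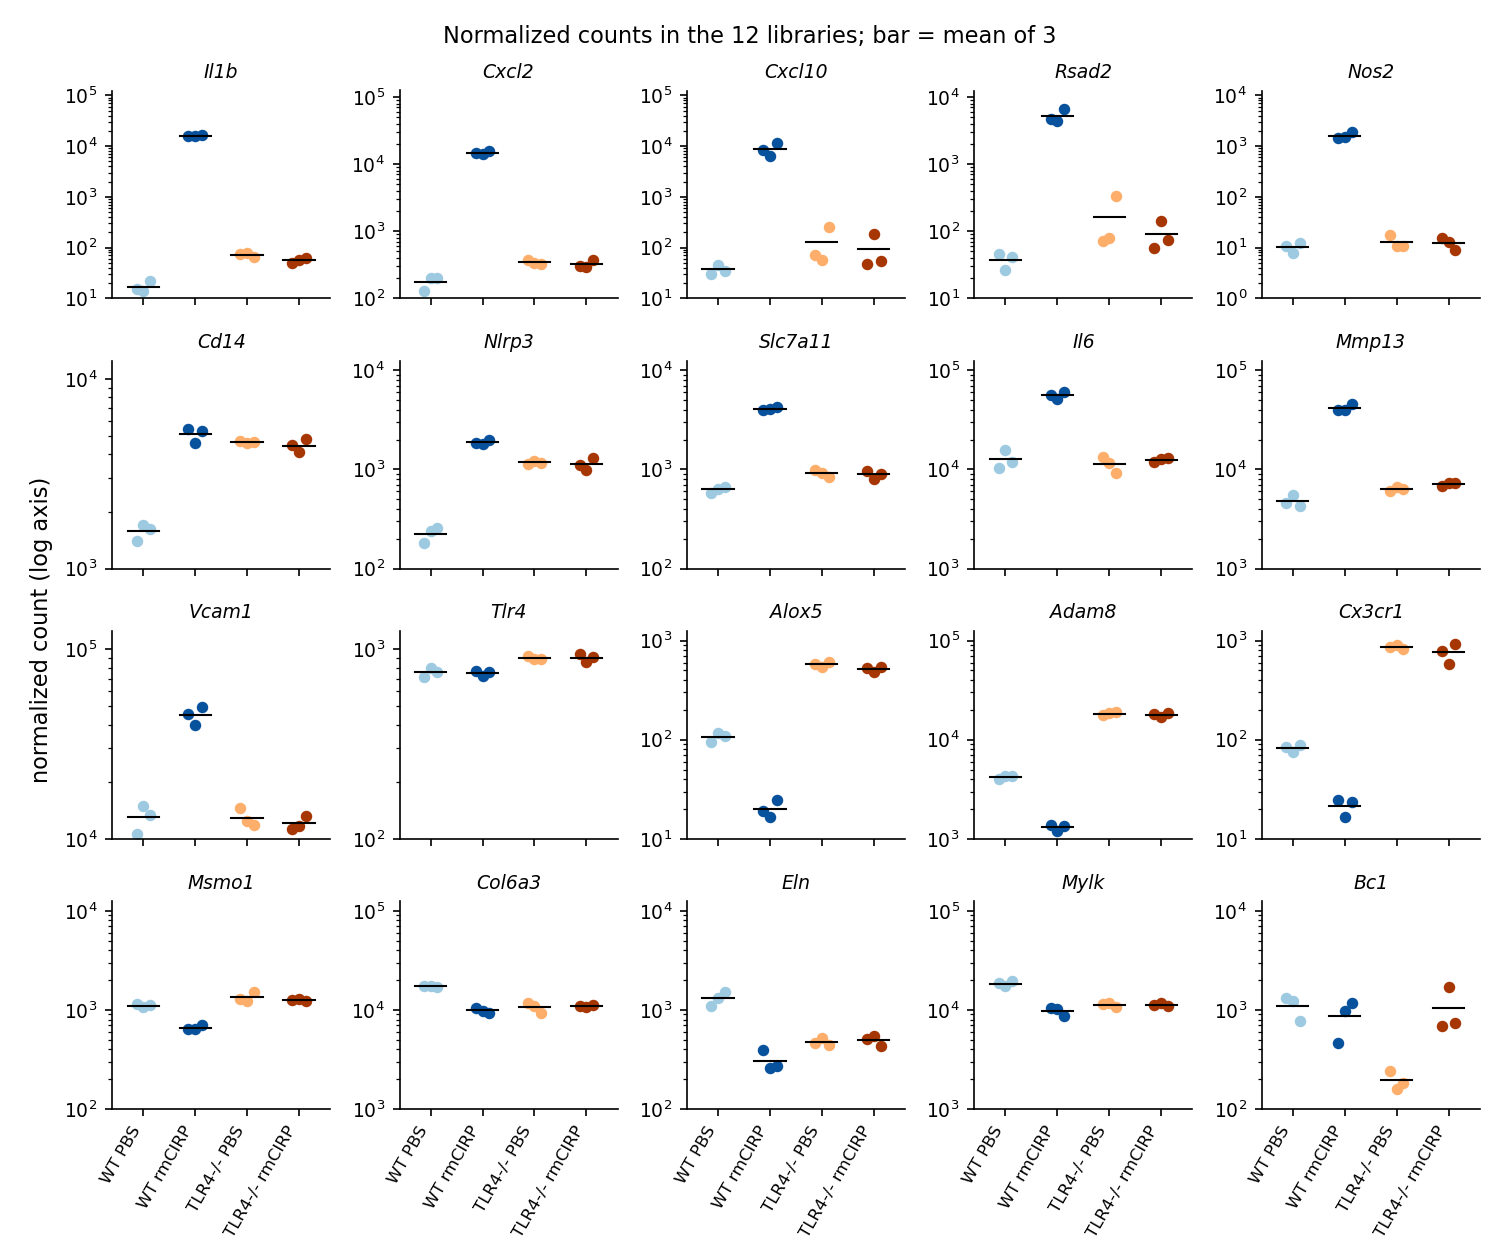
Normalized counts of 20 genes in the 12 libraries on a log axis, one panel per gene, with points for libraries and a bar at the mean of each condition. WT rmCIRP stands apart from the other 3 conditions for most of the genes, upward for Il1b, Cxcl10 and Nos2 and downward for Alox5, Adam8 and Eln, while Tlr4 lies between 718 and 941 in all 12 libraries and the TLR4-/- conditions of Bc1 do not overlap.

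The cytokine and chemokine lists had mostly lower responses in TLR4-/-. Of the 13 IL-1 family genes tested, 9 were called lower and the other 4 were not called, with a median difference of -1.79 (0.03 over all genes tested), which became -1.10 without TLR4-/- PBS replicate 1. Il1a, the alpha form of interleukin-1, had 39.5, 47.9 and 44.8 in WT PBS and 7880.0, 7757 and 8831 in WT rmCIRP against 101 to 147 across the TLR4-/- libraries (-7.25 ± 0.39, SE). Il1rn, the receptor antagonist that opposes both, had a difference of -2.98 ± 0.22, rising in WT from between 485 and 567 to between 3885 and 4814. Among 17 IL-6 and IL-12 family genes, 8 were lower, 1 was higher and the median was -0.59. Il6 had 10379.7, 15631 and 11956 in WT PBS, 56835, 51101 and 59860.2 in WT rmCIRP, 13446, 11549.6 and 9290.0 in TLR4-/- PBS and 11882, 12793 and 13068 in TLR4-/- rmCIRP, so that the other 9 libraries overlapped and the difference was -1.99 ± 0.33 (SE, adjusted p = 9.7e-05). The IL-6 family member oncostatin M (Osm, -2.45 ± 0.32) and the IL-27 subunit Il27 (-6.26 ± 0.73) were lower as well. Of 24 TNF superfamily ligands and receptors 10 were lower and 2 higher (median -0.26), led by Tnf (-4.93 ± 0.16), the co-stimulatory receptor Cd40 (-3.26 ± 0.14) and the TNF receptor Tnfrsf1b (-1.74 ± 0.12).

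Chemokines that draw neutrophils had the lowest median of these lists. All 5 called genes of 6 tested were lower, with a median of -3.65, and their summed counts were 1829.6 to 2894 in WT PBS, 44257 to 47327 in WT rmCIRP, 2641 to 3073 in TLR4-/- PBS and 2528 to 2830.2 in TLR4-/- rmCIRP. Cxcl2 rose in WT from 127, 202 and 198 to 14534, 14354 and 15762 and stood at 367, 338 and 328 and 303, 289 and 369 in TLR4-/- with PBS and rmCIRP, 2 overlapping sets (-6.51 ± 0.27, SE, adjusted p = 8.02e-14). Cxcl1 (-4.15 ± 0.61) and Cxcl3 (-6.39 ± 0.39), which use the same receptor, behaved alike, Cxcl1 reaching 17052 to 17921 in WT rmCIRP against 287 to 1188 elsewhere. Of 16 CC chemokines, which draw monocytes and lymphocytes, 11 were lower and the other 5 were not called (median -2.20). Ccl3 (-4.73 ± 0.18) and Ccl4 (-3.46 ± 0.21) were lower together with Ccl5, and the list summed to 22313 to 28943 in WT PBS, 132001 to 138681 in WT rmCIRP and 40129.6 to 44225 and 39836 to 42325 in TLR4-/-. The remaining CXC, CX3C and XC chemokines went both ways, 3 of 7 lower and 2 higher. Cxcl16 was lower (-1.92 ± 0.13), while Cxcl12, a homeostatic chemokine of stromal cells, fell in WT from between 29076 and 31294 to between 23557 and 25163 and was higher in its response (0.37 ± 0.12). Of 10 colony-stimulating factors and receptors 3 were lower and 1 higher (5 lower without TLR4-/- rmCIRP + rmTGF-Beta1 replicate 3, a library that enters the shared estimate of spread). Csf3, the neutrophil growth factor, was lower (-4.13 ± 0.24), and Csf1r, the receptor for the macrophage growth factor, was higher (0.42 ± 0.09).

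Toll-like receptors and the signalling proteins below them were called lower more often than higher. Of 19 genes of the TLR4 complex and other Toll-like receptors, 9 were lower and 1 higher, with a median of -0.28, and 16 of the 19 were higher in TLR4-/- with PBS, against 23.2% of all genes tested. The difference for Tlr4 itself was not called, at 0.02 with an adjusted p of 0.885, and its sign changed between settings. Ly96 was at 277, 292 and 277 in WT PBS, 337, 360.1 and 356 in WT rmCIRP and 278 to 315 in TLR4-/- (-0.28 ± 0.11, SE, adjusted p = 0.0757), a call that was lost without WT PBS replicate 1 or 3, WT rmCIRP replicate 2 or 3, TLR4-/- PBS replicate 1 or 3, or TLR4-/- rmCIRP replicate 1. Cd14, which hands ligand to TLR4, had 1403, 1688 and 1616 in WT PBS and 5436, 4614 and 5316 in WT rmCIRP, but in TLR4-/- it was already at 4691, 4622 and 4644 with PBS and stood at 4466, 4098 and 4819.9 with rmCIRP, so that the WT rmCIRP and TLR4-/- libraries overlapped (-1.76 ± 0.15, SE). Tlr13, an endosomal receptor for bacterial RNA, fell in WT from between 460.0 and 529 to between 217 and 286 and lay between 1960.0 and 2214 in TLR4-/- (0.98 ± 0.13). Among 25 adaptors, IRAK kinases and TRAFs, 12 were lower and 1 higher (median -0.19). Myd88 had a modest difference (-0.51 ± 0.08) beside that of Traf1 (-4.60 ± 0.29), a TRAF protein that NF-kB induces, and Peli2, an IRAK-binding ubiquitin ligase, was the one called higher (1.06 ± 0.11).

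NF-kB genes and their feedback inhibitors were lower as groups. Of 15 NF-kB subunits and inhibitors 11 were lower and the other 4 were not called, with a median of -0.71. Nfkbia, the inhibitor IkB alpha, had 3162, 3728 and 3506 in WT PBS, 10663, 10332 and 11002 in WT rmCIRP, 3376, 3326 and 3189.6 in TLR4-/- PBS and 3370.2, 3121 and 3379.7 in TLR4-/- rmCIRP (-1.61 ± 0.14, SE, adjusted p = 1.17e-08). WT rmCIRP was above the other 9 libraries, which overlapped. The precursor subunit Nfkb1 (-1.45 ± 0.21) and the inhibitor Nfkbie (-1.14 ± 0.09) followed. Of 29 feedback regulators 17 were lower and 3 higher (median -0.62). Tnfaip3, the ubiquitin-editing enzyme A20, went from between 705 and 845 to between 4085 and 4179 in WT and lay between 1036 and 1212 in TLR4-/- (-2.41 ± 0.22). The cytokine-signalling inhibitor Socs1 was lower (-1.88 ± 0.22), while the phosphatase Dusp1, which switches off MAP kinases, fell in WT from between 3982 and 4418 to between 2701 and 2929.8 and was higher in its response (0.52 ± 0.12), as was Tnfaip8l2 (1.28 ± 0.15). Of 24 AP-1 and other immediate early genes 11 were lower and 3 higher, beside 14.3% and 17.1% over all genes tested. The share called higher was thus under that of all genes. Ier3 (-1.53 ± 0.28), Junb (-0.79 ± 0.11) and Nr4a2 (-0.68 ± 0.13) were lower, and Fos, with 533 to 588 in WT PBS and 287 to 394 in WT rmCIRP, was higher (0.75 ± 0.16).

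Interferon-stimulated genes were lower almost without exception. Of 36 tested 35 were lower and 1 was not called, with a median difference of -4.52, beside 14.3% called lower and a median of 0.03 over all genes tested. Their summed counts were 17941 to 18219 in WT PBS, 102578 to 148088 in WT rmCIRP, 22084 to 28358 in TLR4-/- PBS and 22443 to 28593 in TLR4-/- rmCIRP. Of 16 interferon-inducible GTPases, which attack the vacuoles of intracellular microbes, 15 were lower and 1 was not called (median -4.73). Cxcl10, an interferon-induced chemokine for T cells, had 30.8, 45.9 and 34.3 in WT PBS, 8530.5, 6249 and 11783 in WT rmCIRP, 70.1, 57.2 and 253 in TLR4-/- PBS and 48.2, 183 and 54.1 in TLR4-/- rmCIRP (-8.29 ± 0.78, SE, adjusted p = 4.64e-08). Rsad2, the antiviral protein viperin, had 45.2, 26 and 40.6 and 4642, 4424 and 6639 in WT and 71.1, 78.4 and 335 and 57, 143 and 72.7 in TLR4-/- (-7.94 ± 0.67, SE, adjusted p = 8.2e-09). For both genes WT rmCIRP stood above every other library, and among the TLR4-/- libraries PBS replicate 3 and rmCIRP replicate 2 stood above the other 4. Cmpk2, a nucleotide kinase next to Rsad2, was highest in the same TLR4-/- libraries, at 149 and 102 (-7.17 ± 0.68). The DNA sensor Ifi205 (-7.03 ± 0.95), the nucleic acid sensor Zbp1 (-4.70 ± 0.48) and the GTPases Gbp5 (-7.26 ± 0.57), Gbp3 (-5.07 ± 0.45) and Tgtp2 (-5.38 ± 0.96) were lower as well.

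The factors that carry interferon signals went both ways. Of 14 interferon regulatory and STAT factors 8 were lower and 4 higher (median -0.47). Irf7, the factor that amplifies interferon production, was at 95.3, 113 and 90.6 and 3613, 2896 and 4482 in WT and at 212, 130.3 and 180.2 and 146, 423 and 154 in TLR4-/-, rmCIRP replicate 2 being the highest of the TLR4-/- libraries (-4.71 ± 0.55, SE). Stat2, a part of the factor that binds interferon response elements, was lower (-3.0 ± 0.28). Irf8, a factor of myeloid cells, fell in WT from between 245 and 302 to between 142 and 178 and lay between 1084 and 1233 in TLR4-/- (0.82 ± 0.12). Genes of MHC class I presentation and the immunoproteasome, which interferon also induces, were lower for 19 of 22, the other 3 not being called (median -1.0), and their sums were 118647 to 125012 in WT PBS, 143529 to 156760.0 in WT rmCIRP and 138004 to 145056 and 135263 to 140935 in TLR4-/-. Nlrc5, the transactivator of class I genes, had 78.9 to 96.2 in WT PBS, 568 to 1001 in WT rmCIRP and 377 to 429 in TLR4-/- (-3.13 ± 0.24), and the peptide transporter Tap1 (-2.66 ± 0.18) and H2-Q4 (-2.65 ± 0.19) were alike. Counts of H2 genes may be split among near-identical copies. Of 8 MHC class II genes tested 2 were lower, among them H2-Ab1 (-1.05 ± 0.16), and 1 was higher, a call lost without WT PBS replicate 1 or 3, WT rmCIRP replicate 1 or 2, TLR4-/- PBS replicate 1 or 3, or TLR4-/- rmCIRP replicate 2.

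The DNA around the transcription starts of 5 genes is shown because the sites known for NF-kB and for interferon factors can be read in it. The sequences, each 300 bases from RefSeq on GRCm38.p6, run 5′ to 3′ on the gene's strand from 250 bases before the start to 50 after it, and capitals mark letters that match the kB motif (GGGA, any 2 bases, TTCC) or the interferon-stimulated response element (GAAA, any 2 bases, GAAA) on either strand. Cxcl10 (chr5:92348840-92349139, minus strand) held the interferon element at base 38 and the kB motif at base 92, counted from 1 at the first base printed. Rsad2 (chr12:26456403-26456702, minus strand) held the interferon element at base 131. Ifit1 (chr19:34640639-34640938, plus strand), an antiviral RNA-binding protein, held it at bases 147 and 166. Gbp2 (chr3:142620413-142620712, plus strand), a guanylate-binding protein, held it at base 192 and the kB motif at base 258. Cxcl2 (chr5:90903649-90903948, plus strand) held the kB motif at bases 154 and 155, overlapping matches on opposite strands.
Cxcl10: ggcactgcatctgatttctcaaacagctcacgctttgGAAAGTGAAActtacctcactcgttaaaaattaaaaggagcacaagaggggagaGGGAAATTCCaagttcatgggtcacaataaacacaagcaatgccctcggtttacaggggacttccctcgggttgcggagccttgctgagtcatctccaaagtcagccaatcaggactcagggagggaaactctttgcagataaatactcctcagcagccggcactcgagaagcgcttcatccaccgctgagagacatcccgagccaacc
Rsad2: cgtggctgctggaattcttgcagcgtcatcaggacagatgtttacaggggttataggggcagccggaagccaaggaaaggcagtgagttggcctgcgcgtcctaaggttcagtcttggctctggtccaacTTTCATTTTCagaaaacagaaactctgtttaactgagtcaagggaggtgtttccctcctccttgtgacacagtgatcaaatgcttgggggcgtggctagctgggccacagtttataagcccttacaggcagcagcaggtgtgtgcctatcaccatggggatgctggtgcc
Ifit1: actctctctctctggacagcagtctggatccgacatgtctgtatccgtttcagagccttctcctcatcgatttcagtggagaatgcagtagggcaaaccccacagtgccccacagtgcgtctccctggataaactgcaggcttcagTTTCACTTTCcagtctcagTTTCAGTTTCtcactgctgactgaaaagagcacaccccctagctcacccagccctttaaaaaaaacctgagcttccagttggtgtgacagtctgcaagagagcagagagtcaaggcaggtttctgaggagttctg
Gbp2: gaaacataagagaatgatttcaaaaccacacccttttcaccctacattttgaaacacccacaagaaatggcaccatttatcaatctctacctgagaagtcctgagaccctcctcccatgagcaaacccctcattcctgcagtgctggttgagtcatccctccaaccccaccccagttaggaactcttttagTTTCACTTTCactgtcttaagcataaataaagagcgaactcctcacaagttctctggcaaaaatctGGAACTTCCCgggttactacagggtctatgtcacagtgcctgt
Cxcl2: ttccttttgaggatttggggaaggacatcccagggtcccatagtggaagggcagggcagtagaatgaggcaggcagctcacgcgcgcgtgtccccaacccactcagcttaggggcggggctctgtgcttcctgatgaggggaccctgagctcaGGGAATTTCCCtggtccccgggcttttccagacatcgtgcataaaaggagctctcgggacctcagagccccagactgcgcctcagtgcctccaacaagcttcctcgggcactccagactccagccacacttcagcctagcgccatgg
In the 27025 promoters of the same table the kB letters occurred in 1.63% and the interferon element letters in 3.99%. The letters searched for AP-1 (TGANTCA) and PU.1 (GAGG followed by AAGT), in 8.97% and 3.69% of those promoters, are not marked. Ifit1 and Gbp2 were chosen after their letters and values were seen. Ifit1 had 78.9, 108 and 74.9 in WT PBS, 12097, 8855 and 14032 in WT rmCIRP and 114 to 645 in TLR4-/- (-6.77 ± 0.88, SE), and Gbp2 had 669, 849.6 and 809.8, 7554, 6164 and 8639 and 511 to 857 (-3.05 ± 0.27, SE). A match is a description of letters and not evidence of a bound site, and because 71.7% of the genes tested could be matched to the promoter table, shares over the called genes are not given.

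Enzymes that make inflammatory small molecules were called lower more often than higher. Of 17 nitric oxide, arginine, itaconate and oxidase genes 11 were lower and 1 was higher, with a median of -1.44 (-0.69 with genes at 3 counts or fewer set to their bound). Acod1, the enzyme that makes itaconate, had 616 to 742 in WT PBS, 9064 to 10308 in WT rmCIRP and 759 to 983 in TLR4-/- (-3.95 ± 0.13, SE). The arginine transporter Slc7a2 (-2.64 ± 0.39) and Gch1, which makes the cofactor of nitric oxide synthase (-2.0 ± 0.15), were lower too. Of 24 prostaglandin and leukotriene genes, 7 were lower and 4 higher (median 0.12). In both of these lists the share called higher was no larger than the 17.1% over all genes tested. Ptgs2, the inducible cyclooxygenase, had 128308, 129178 and 121058 in WT PBS, 271309, 255092 and 268798 in WT rmCIRP, 95959.8, 99886 and 89029.8 in TLR4-/- PBS and 99304, 98922 and 93009 in TLR4-/- rmCIRP, the last 2 overlapping (-1.03 ± 0.18, SE, adjusted p = 0.000169). Ptges, the prostaglandin E synthase (-1.47 ± 0.28), and Ptgir, the prostacyclin receptor (-1.10 ± 0.24), were lower. Alox5, the 5-lipoxygenase of leukocytes, fell in WT from 94.3, 116 and 109 to 19.1, 16.5 and 24.7 and lay between 479 and 601 in TLR4-/- (2.25 ± 0.18, SE), and its activating protein Alox5ap followed (0.89 ± 0.16).

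Acute-phase and inflammasome genes were more often lower than higher. Of 15 acute-phase and antimicrobial genes 8 were lower and 1 was higher (median -1.02). Ptx3, a soluble pattern-recognition protein of stromal cells, had 1238 to 1858 in WT PBS, 6598 to 7456 in WT rmCIRP and 1005 to 1555 in TLR4-/- (-2.10 ± 0.23), and the siderophore-binding Lcn2 was lower too (-2.01 ± 0.39). Marco, a scavenger receptor of macrophages, rose in WT from between 824 and 1023 to between 3152 and 3387 and lay below both WT groups in TLR4-/-, between 369 and 452 (-1.70 ± 0.16). Of 18 inflammasome and pyroptosis genes 10 were lower and 3 higher (median -0.56), and 15 were higher in TLR4-/- with PBS, against 23.2% of all genes tested. The sensor Nlrp3 had 180.0, 242 and 255 in WT PBS and 1865, 1807 and 1973 in WT rmCIRP, while TLR4-/- had 1147, 1224 and 1171 with PBS and 1109, 994 and 1305 with rmCIRP (-3.11 ± 0.15, SE, adjusted p = 1.12e-12). The TLR4-/- libraries thus stood between the WT conditions. Casp1, the protease that matures interleukin-1 beta, was lower (-1.59 ± 0.18). The sensor Nlrp1b (2.58 ± 0.38), its neighbour Nlrp1a (1.60 ± 0.30) and the adaptor Pycard (1.17 ± 0.25) were higher, each falling in WT. Nlrp1a and Nlrp1b are close paralogs whose reads may be shared. Among 22 complement genes 4 were lower and 5 higher, shares near the 14.3% and 17.1% over all genes tested, the 4 becoming 2 without WT PBS replicate 1 or WT rmCIRP replicate 3. The complement regulator Cd59a was higher (0.50 ± 0.07), with 1469 to 1509 in WT PBS and 1079 to 1111 in WT rmCIRP, and so was the anaphylatoxin receptor C3ar1 (0.65 ± 0.12).

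Genes of macrophages were higher in TLR4-/- at baseline and were more often called higher than lower in their response. Of 24 macrophage identity genes, 24 were higher in TLR4-/- with PBS (23.2% of all genes tested), by a median of 2.22 on the log2 scale. In their response 5 were lower and 13 higher (median 0.30), beside 14.3% and 17.1% over all genes tested. The list summed to 102791 to 111412 in WT PBS, 86963 to 92081 in WT rmCIRP, 382921 to 437508 in TLR4-/- PBS and 369076 to 418645 in TLR4-/- rmCIRP, so the WT conditions separated and the TLR4-/- conditions overlapped. Cx3cr1, the fractalkine receptor, had 84.7, 75.9 and 87.4 in WT PBS, 24.4, 16.5 and 23.7 in WT rmCIRP, 869, 899.7 and 820.3 in TLR4-/- PBS and 779.6, 580.0 and 934 in TLR4-/- rmCIRP (1.77 ± 0.38, SE, adjusted p = 0.00159). The efferocytosis receptor Mertk (0.70 ± 0.16) followed it, and C1qa, a complement subunit that macrophages make, fell in WT from between 1866 and 2099 to between 1308 and 1551 (0.43 ± 0.12). Other macrophage genes went the opposite way. Adgre1, the marker F4/80, rose in WT from 1863, 2204 and 2032 to 4136, 3939 and 3965 and stood at 6639, 6866 and 6948 and 6400.2, 5800.1 and 6938 in TLR4-/- (-1.07 ± 0.11, SE), and the high-affinity Fc receptor Fcgr1 (-2.22 ± 0.18) and the lineage factor Spi1 (-0.69 ± 0.11) were lower as well. Summed, this list was higher in each TLR4-/- library than in each WT library, and its part in the differences of the other lists was not tested.

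Receptors of myeloid cells also went both ways. Of 25 CD300, Siglec and paired inhibitory receptors 8 were lower and 10 higher, and 23 were higher in TLR4-/- with PBS, against 23.2% of all genes tested. Their median difference was 0.06, and it became -0.15 without WT rmCIRP replicate 2 and -0.17 without TLR4-/- PBS replicate 1. Cd300lb, an activating receptor of myeloid cells, fell in WT from between 289 and 376 to between 47.4 and 61.5 and lay between 1239 and 1489 in TLR4-/- (2.58 ± 0.19), with Cd300a (2.46 ± 0.24) alike. Siglece (-1.93 ± 0.33), Pilrb1 (-0.93 ± 0.17) and Clec12a (-0.88 ± 0.13) were lower. Of 11 myeloid C-type lectins 4 were lower and the other 7 were not called. Clec4e, the receptor Mincle for mycobacterial glycolipid, had 534, 659 and 642 in WT PBS, 9888, 9790.4 and 11156 in WT rmCIRP, 1593, 1681 and 1524 in TLR4-/- PBS and 1564, 1376 and 1781 in TLR4-/- rmCIRP (-4.08 ± 0.13, SE, adjusted p = 1.21e-15). Of 27 chemokine, formyl-peptide and purine receptors 10 were lower, led by Ccrl2 (-4.69 ± 0.33), the medium-chain fatty acid receptor Gpr84 (-2.50 ± 0.16) and the formyl-peptide receptor Fpr2 (-2.41 ± 0.19), and 6 were higher. Of 20 scavenger and efferocytosis receptors 3 were lower, including the oxidized-lipoprotein receptor Olr1 (-1.72 ± 0.33), and 7 were higher, including the clearance receptor Stab1 (0.55 ± 0.11). The share called lower was near the 14.3% over all genes tested. Lysosomal genes were higher in TLR4-/- with PBS for 36 of 41, against 23.2% of all genes tested. In their response 3 were lower, a share under the 14.3%, and 10 higher, beside 17.1% over all genes tested. The last count was 16 without TLR4-/- rmCIRP + rmTGF-Beta1 replicate 3. The protease Ctsc was lower (-0.66 ± 0.07), and the lysosomal master factor Tfeb (0.71 ± 0.14) and the proton pump subunit Atp6v0d2 (1.19 ± 0.24) were higher.

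**Figure D3:**
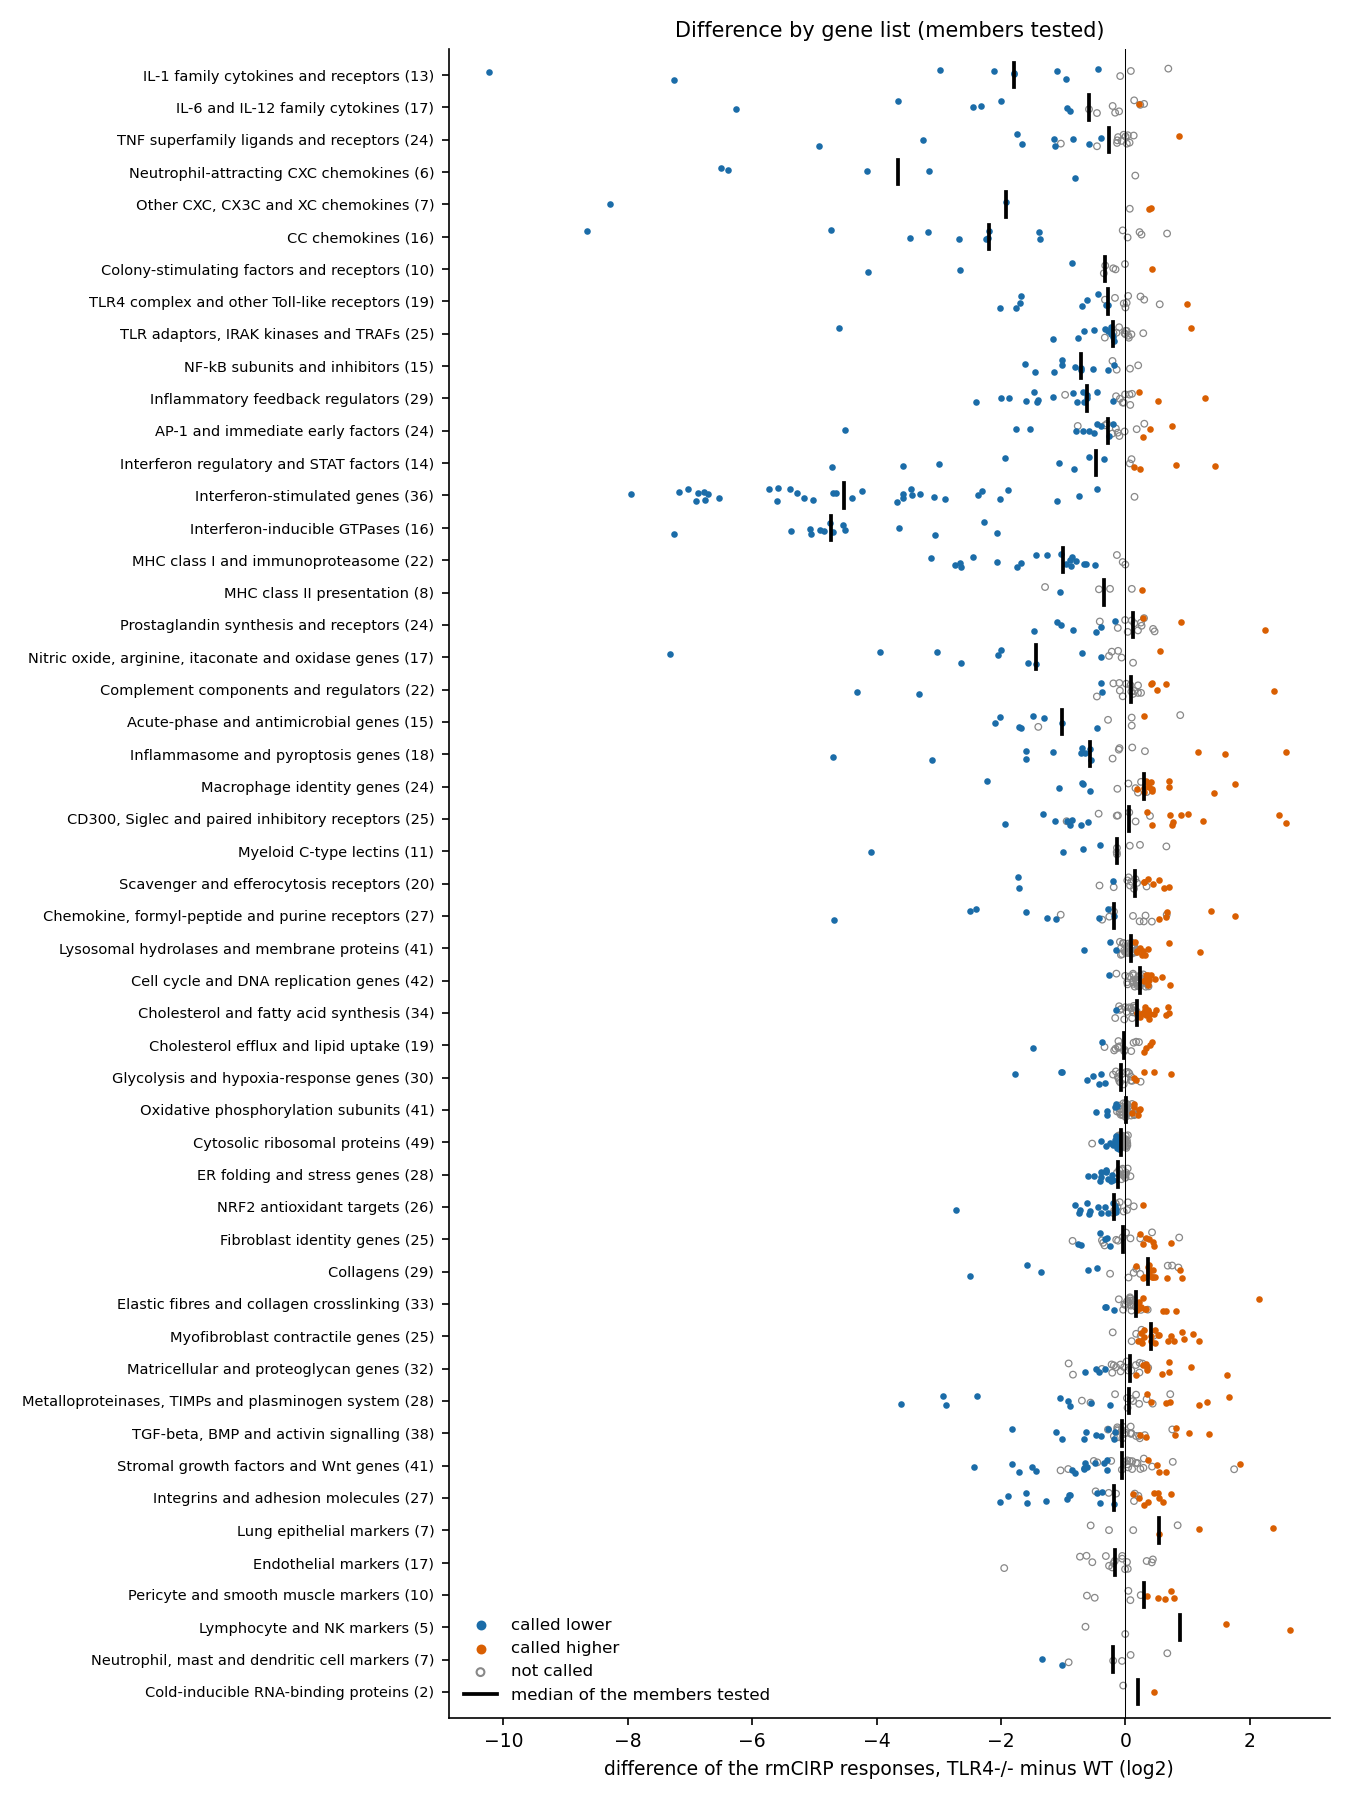
Genotype difference in the rmCIRP response (log2, horizontal axis) for the members of 51 gene lists, one row per list, with a bar at the list's median and members with a condition at 3 counts or fewer left out of the points. The interferon lists lie farthest to the left, with medians of -4.52 and -4.73, and the contractile list, with a median of 0.41, lies to the right of 0.

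Lipid synthesis genes, and a smaller share of proliferation genes, had higher responses in TLR4-/- than in WT. Of 34 cholesterol and fatty acid synthesis genes 18 were higher and 1 was lower (median 0.19), and the list summed to 65232 to 69276 in WT PBS, 58506 to 61369 in WT rmCIRP, 67739 to 68327 in TLR4-/- PBS and 66229 to 67433 in TLR4-/- rmCIRP. Msmo1, a sterol-making enzyme, had 1139.5, 1063 and 1123 in WT PBS, 638, 641 and 712 in WT rmCIRP, 1281, 1237 and 1519 in TLR4-/- PBS and 1254, 1299 and 1239 in TLR4-/- rmCIRP (0.66 ± 0.14, SE, adjusted p = 0.00161). WT rmCIRP was below the other 9 libraries. The acetyl-CoA synthetase Acss2 (0.70 ± 0.14) was higher too. Of 19 cholesterol efflux and lipid uptake genes 2 were lower and 4 higher (median -0.02), shares near the 14.3% and 17.1% over all genes tested. The higher count was 1 or 2 without WT PBS replicate 1 or 2, WT rmCIRP replicate 2 or 3, or TLR4-/- rmCIRP replicate 2 or 3. Ch25h, which makes the antiviral oxysterol 25-hydroxycholesterol, was one of the lower genes (-1.48 ± 0.17), rising in WT from between 1879 and 2888 to between 6267 and 7314. Of 42 cell cycle and DNA replication genes 11 were higher and 1 was lower (median 0.23). That count of higher genes rested on single libraries: it was 3 without WT PBS replicate 1, 5 without WT rmCIRP replicate 3, 6 without TLR4-/- PBS replicate 1 or TLR4-/- rmCIRP replicate 1, 7 without TLR4-/- rmCIRP replicate 2, 17 without TLR4-/- rmCIRP + rmTGF-Beta1 replicate 3 and 21 without WT PBS replicate 2. The G1 cyclin Ccnd1 had 1359.9 to 1507 in WT PBS, 817 to 921 in WT rmCIRP and 4463 to 4929 in TLR4-/- (0.72 ± 0.10), thymidine kinase Tk1 was alike (0.58 ± 0.15), and the cell cycle inhibitor Cdkn1a was the lower one (-0.26 ± 0.05).

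Antioxidant and folding genes that were called were lower, with 1 exception. Of 26 NRF2 antioxidant targets 16 were lower and 1 was higher (median -0.18), with 12 lower when libraries were scaled by their totals. Slc7a11, the cystine transporter that supports glutathione, had 582, 641 and 666 in WT PBS, 3941, 4104 and 4249 in WT rmCIRP, 989, 911 and 838 in TLR4-/- PBS and 964, 806 and 908 in TLR4-/- rmCIRP (-2.72 ± 0.32, SE, adjusted p = 1.12e-06), so that WT rmCIRP stood alone above the rest. Glutathione reductase Gsr (-0.75 ± 0.11) and heme oxygenase Hmox1 (-0.81 ± 0.27) were lower, and malic enzyme Me1 was the higher one (0.28 ± 0.07). Of 28 endoplasmic reticulum folding and stress genes 12 were lower and the other 16 were not called (median -0.12), led by the chaperone Dnajb9 (-0.60 ± 0.09), the stress sensor Ern1 (-0.51 ± 0.16) and Herpud1 (-0.41 ± 0.04). Glycolysis and hypoxia genes were split, 8 of 30 lower and 5 higher, the higher share being near the 17.1% over all genes tested and the count falling to 3 without WT rmCIRP replicate 2 or TLR4-/- rmCIRP replicate 2. The sugar transporter Slc2a6 (-1.77 ± 0.11), the oxygen sensor Egln3 (-1.01 ± 0.11) and Ndrg1 (-1.03 ± 0.28) were lower, and the phosphofructokinases Pfkp (0.30 ± 0.05) and Pfkm (0.45 ± 0.10) were higher.

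Ribosomal and mitochondrial genes had small differences, and several of them had their larger response in the TLR4-/- cultures. Of 49 ribosomal protein genes 11 were lower and the other 38 were not called (median -0.07), with counts from 7 (without WT rmCIRP replicate 1) through 17 (without WT rmCIRP replicate 3) to 21 (without WT PBS replicate 1), 22 by DESeq2 and 4 with libraries scaled by their totals. The list summed to 811773 to 847159 in WT PBS, 857016 to 860615 in WT rmCIRP, 794305 to 818409 in TLR4-/- PBS and 779465 to 804060.0 in TLR4-/- rmCIRP, the TLR4-/- conditions overlapping. In 7 of the 11 the response was larger in TLR4-/- than in WT, as for Rpl13, with 12368, 12067 and 13477 in WT PBS, 14859, 14405 and 13698 in WT rmCIRP, 13642, 13696 and 14355 in TLR4-/- PBS and 12195, 11303 and 12402 in TLR4-/- rmCIRP (-0.39 ± 0.07, SE). Of 41 oxidative phosphorylation subunits 6 were lower and 6 higher, shares near the 14.3% and 17.1% over all genes tested, with a median of 0.01, the higher count being 2 or 3 without WT PBS replicate 2, WT rmCIRP replicate 2 or 3, or TLR4-/- PBS replicate 1. In 9 of the 12 the TLR4-/- response was the larger, for instance in the cytochrome oxidase subunit Cox5a, at 1656 to 1844 with PBS and 1319.7 to 1477 with rmCIRP in TLR4-/- against 1367 to 1599.8 and 1561 to 1784 in WT (-0.47 ± 0.12). Reads of ribosomal protein genes may be shared with their processed pseudogenes, so their counts are uncertain.

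Contractile genes were called in the higher direction alone. Of 25 contractile genes 19 had a higher response in TLR4-/- and the other 6 were not called, with a median of 0.41 beside 17.1% called higher and 0.03 over all genes tested. Their sums were 1198748 to 1245426 in WT PBS, 959858 to 1024020.1 in WT rmCIRP, 949179 to 1003274 in TLR4-/- PBS and 979439 to 1039450.2 in TLR4-/- rmCIRP, so WT cultures with PBS stood above the other 3 conditions, which overlapped. Mylk, the kinase that starts smooth muscle contraction, had 18508, 17311 and 19531 in WT PBS, 10449, 10118 and 8764 in WT rmCIRP, 11406, 11735 and 10595 in TLR4-/- PBS and 11248, 11769 and 10896 in TLR4-/- rmCIRP (0.94 ± 0.24, SE, adjusted p = 0.00622). Lmod1, an actin nucleator (1.18 ± 0.27), the nonmuscle myosin heavy chain Myh10 (1.08 ± 0.21), calponin Cnn1 (0.74 ± 0.18) and the filament protein desmin (Des, 0.78 ± 0.13) were higher. Acta2, the smooth muscle actin that marks myofibroblasts, was chosen after its values were seen and was not called: it had 295742 to 318757 in WT PBS, 247518 to 277497 in WT rmCIRP and 233835 to 256692 in TLR4-/- (difference 0.25, adjusted p = 0.227).

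Collagen and elastic fibre genes leaned the same way with exceptions. Of 29 collagen genes 15 were higher and 5 lower (median 0.36), the lower count being 2 without TLR4-/- rmCIRP replicate 2 and 3 without WT PBS replicate 2, WT rmCIRP replicate 3, TLR4-/- PBS replicate 1 or TLR4-/- PBS replicate 2. Col6a3, a chain of beaded-filament collagen, had 17606, 17264 and 17233 in WT PBS, 10576, 9739.9 and 9335 in WT rmCIRP, 11732, 10894 and 9220.3 in TLR4-/- PBS and 11045, 10829 and 11239 in TLR4-/- rmCIRP (0.88 ± 0.09, SE, adjusted p = 9.78e-08), so WT PBS stood above the other 9 libraries. Col1a1, the main fibrillar collagen, had 236246 to 246260.0 in WT PBS, 177896 to 198032 in WT rmCIRP and 235364 to 259084 in TLR4-/- (0.44 ± 0.11), and Col15a1 was higher too (0.92 ± 0.13). Col5a3, a minor fibril-regulating chain, went the other way, rising in WT from between 5069 and 6328 to between 14860.2 and 16762 (-1.35 ± 0.23). Of 33 elastic fibre and crosslinking genes 12 were higher and 3 lower (median 0.17). Eln, which encodes elastin, had 1089, 1326 and 1502 in WT PBS, 395, 257 and 272 in WT rmCIRP, 468, 526 and 442 in TLR4-/- PBS and 503, 551 and 429.6 in TLR4-/- rmCIRP (2.15 ± 0.40, SE, adjusted p = 0.000421), the 3 lower sets lying far under WT PBS. The crosslinking enzyme Loxl3 was higher (0.82 ± 0.12), and the collagen hydroxylase P4ha2 (-0.31 ± 0.06) and the microfibril protein Emilin1 (-0.33 ± 0.08) were lower.

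Matrix-degrading enzymes went both ways. Of 28 metalloproteinases, inhibitors and plasminogen genes 9 were lower and 7 higher (median 0.06). Mmp13, a collagenase, had 4604, 5482 and 4323 in WT PBS, 40177, 40211 and 45498 in WT rmCIRP, 6044, 6593 and 6326 in TLR4-/- PBS and 6851, 7226 and 7358 in TLR4-/- rmCIRP (-2.94 ± 0.32, SE, adjusted p = 3.42e-07). In TLR4-/- the rmCIRP libraries lay above the PBS libraries by a change that was not called (0.18, adjusted p = 0.947). The stromelysin Mmp10 (-2.88 ± 0.39) and the plasminogen activator inhibitor Serpinb2 (-3.61 ± 0.58) were lower, Serpinb2 reaching 54192 to 63452 in WT rmCIRP against 4087 to 7388 elsewhere. The membrane protease Adam8 fell in WT from between 3975 and 4327 to between 1189 and 1371 and lay between 16884 and 18819 in TLR4-/- (1.66 ± 0.11), and the aggrecan-cleaving proteases Adamts1 (1.32 ± 0.13) and Adamts5 (1.18 ± 0.22) were higher. Among 32 matricellular and proteoglycan genes 4 were lower and 10 higher (median 0.07), the higher count being 5 without WT PBS replicate 2, 4 without WT rmCIRP replicate 3 and 6 without TLR4-/- rmCIRP replicate 2. The share called lower was under the 14.3% over all genes tested. Ccn5, an antiproliferative matricellular protein (1.63 ± 0.21), and the proteoglycan aggrecan (Acan, 1.06 ± 0.10) were higher, and the hyaluronan receptor Cd44 (-0.65 ± 0.14) and tenascin C (Tnc, -0.47 ± 0.10) were lower.

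Growth factor and adhesion genes were divided. Of 38 TGF-beta, BMP and activin genes 10 were lower (6 without WT PBS replicate 3) and 6 higher. Tgfb3, a ligand of the family, fell in WT from 13781, 12734 and 14238 to 5681, 5440.4 and 4932 and had 9675, 10564 and 9648 and 9812, 10193 and 9521 in TLR4-/- (1.34 ± 0.18, SE), and the activin subunit Inhbb was higher too (1.02 ± 0.24), while the other subunit Inhba was lower (-1.01 ± 0.23). Of 41 stromal growth factor and Wnt genes 15 were lower and 5 higher, the last becoming 3 without WT rmCIRP replicate 2. In both of these lists the share called higher was no larger than the 17.1% over all genes tested. The EGF receptor ligands Ereg (-1.82 ± 0.43) and Areg (-2.44 ± 0.66) and the platelet-derived growth factor Pdgfb (-1.71 ± 0.18) were lower, and Wnt4 (1.85 ± 0.41), Igf1 (0.65 ± 0.08) and the Wnt modulator Dkk3 (0.55 ± 0.09) were higher. Of 27 integrins and adhesion molecules 12 were lower and 9 higher (median -0.19). Vcam1, which tethers leukocytes to stroma, had 10633, 14838 and 13408 in WT PBS, 45502, 39666 and 49821 in WT rmCIRP, 14543, 12346 and 11809 in TLR4-/- PBS and 11282, 11748 and 13222 in TLR4-/- rmCIRP (-1.88 ± 0.24, SE), with WT rmCIRP alone above the rest. Icam1 was lower (-2.01 ± 0.10) and the collagen-binding integrin Itga1 higher (0.74 ± 0.17). Lineage genes of lung fibroblasts gave 6 lower and 7 higher of 25 (median -0.04): the mesenchymal factor Foxf1 (-0.76 ± 0.13), Twist2 (-0.71 ± 0.14) and the cadherin Cdh11 (-0.40 ± 0.06) were lower, and Tbx5 was higher (0.73 ± 0.13).

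**Figure D4:**
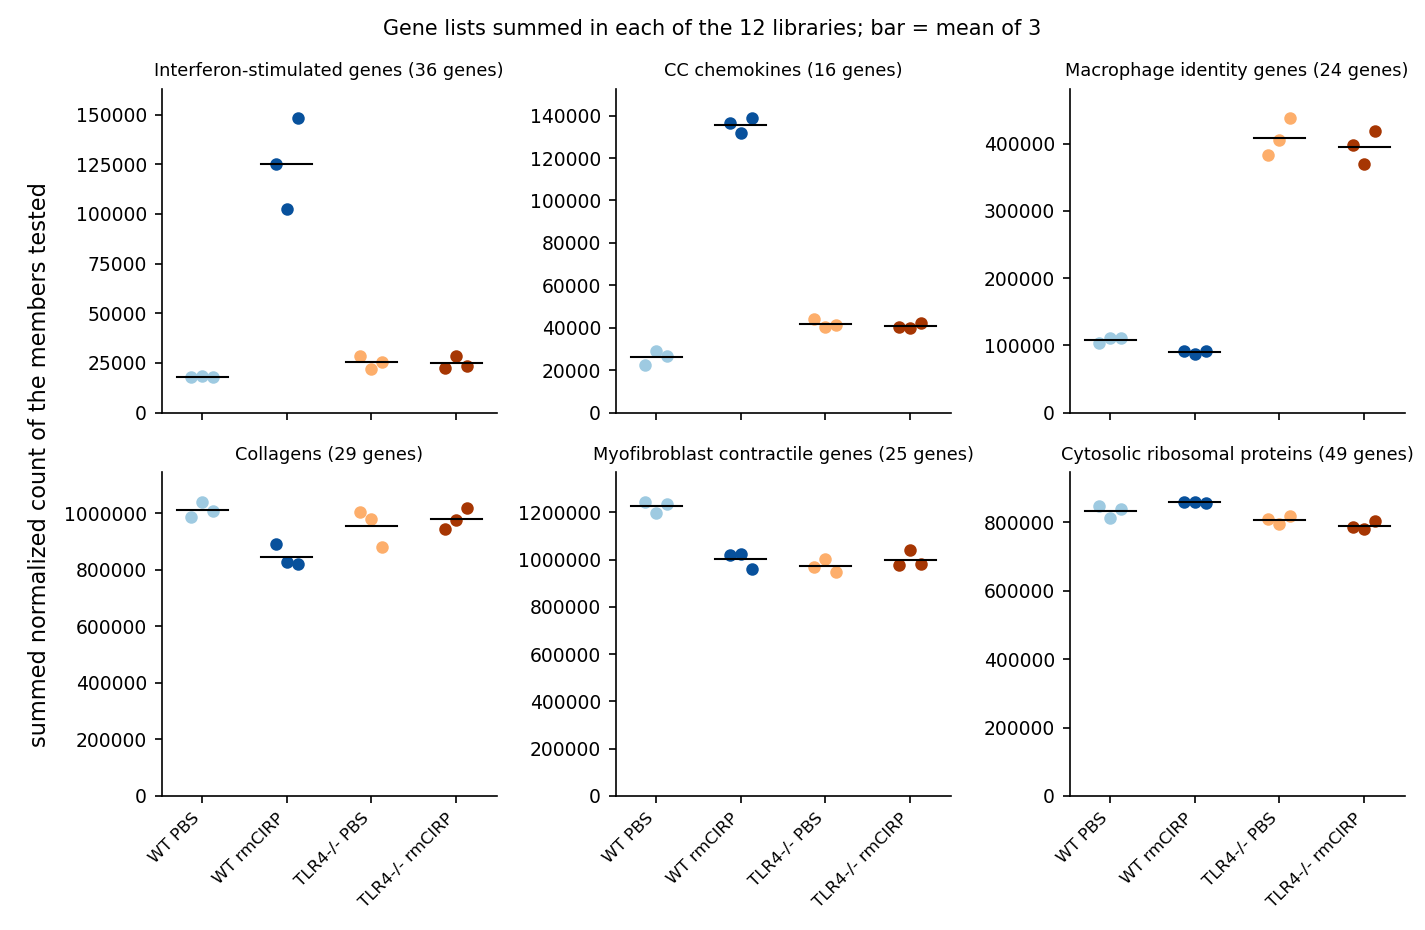
Summed normalized counts of 6 gene lists in each of the 12 libraries, with a bar at the mean of each condition and vertical axes that start at 0. Interferon-stimulated genes and CC chemokines are highest in WT rmCIRP, macrophage identity genes are high in all 6 TLR4-/- libraries, and contractile genes are highest in WT PBS.

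Few markers of lung epithelium, lymphocytes, or neutrophils, mast and dendritic cells could be tested. The endothelial and the pericyte and smooth muscle lists were tested in full. Of 7 lung epithelial markers tested, 3 were called higher (17.1% over all genes tested) and the other 4 were not called. One of the 3 was the keratin Krt18 (1.18 ± 0.32) at 29.1 to 52.9 in WT PBS, 14.4 to 18.8 in WT rmCIRP and 118 to 156 in TLR4-/-. Of 17 endothelial markers the edgeR test called 0, with 0 at an unadjusted p under 0.05 and 0 by DESeq2. Of 10 pericyte and smooth muscle markers 5 were higher, including Mcam (0.63 ± 0.19). Of 5 lymphocyte and natural killer markers 2 were higher: Cd28, a T cell co-receptor (2.64 ± 0.29), and Trac, the T cell receptor alpha constant region (1.62 ± 0.38), which was at 125 to 177 in WT PBS, 35.6 to 61.5 in WT rmCIRP and 147 to 158 in TLR4-/-. Of 7 neutrophil, mast and dendritic cell markers 2 were lower, a count that fell to 0 or 1 without some libraries. Cirbp, the gene of CIRP itself, had 475, 462 and 458 in WT PBS, 331, 342 and 337 in WT rmCIRP, 443, 369.8 and 402 in TLR4-/- PBS and 418, 358 and 421 in TLR4-/- rmCIRP, so that WT rmCIRP lay below the other 9 libraries (0.45 ± 0.12, SE, adjusted p = 0.00808). Rbm3, the other cold-inducible RNA-binding protein, lay between 4945 and 5588 in the other 3 conditions and 5418 to 5561 in WT rmCIRP and was not called (-0.04, adjusted p = 0.655).

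Among the called genes with the larger response in the TLR4-/- cultures, some were named for the size of that response. Besides Bc1, the nuclear noncoding RNA Malat1 had 18229, 17627 and 17231 in WT PBS, 14832, 16553 and 16713 in WT rmCIRP, 14447, 15772 and 15925 in TLR4-/- PBS and 26176, 24672 and 17249 in TLR4-/- rmCIRP, where the TLR4-/- conditions did not overlap (0.72 ± 0.16, SE, adjusted p = 0.00193). Tmem100, a membrane protein known from endothelium, was at 43.5, 30.7 and 22.9 with PBS and 22.6, 10.2 and 10.8 with rmCIRP in TLR4-/- and at 95.3, 84.9 and 92.6 and 171, 133 and 147 in WT (-1.87 ± 0.33, SE). The SCAN-domain gene Scand1 (-1.72 ± 0.30), Erdr1 (-1.92 ± 0.37) and the gene model Gm23935 (-2.82 ± 0.68) were lower, Gm23935 with WT rmCIRP libraries as far apart as 5710.0, 1523 and 2767. These genes were picked among called genes whose TLR4-/- rmCIRP and PBS libraries did not overlap, so that trait is not a result about them. Such non-overlap held for 2230 of the 16258 genes tested (13.7%). The response within TLR4-/- alone was not called for any of the genes named here. In WT the libraries did not overlap for 8263 genes (50.8%). With rmTGF-Beta1 in both arms the TLR4-/- libraries with and without rmCIRP did overlap for Malat1, Scand1 and Gm23935. Without and with rmCIRP, these TLR4-/- libraries had 13658 to 16738 and 13647 to 17665 for Malat1. The same ranges were 275 to 350 and 327 to 399 for Scand1, and 1807 to 2842 and 2067 to 3137 for Gm23935.

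The second set of libraries, in which both arms carried rmTGF-Beta1, gave 3390 called genes (20.9%), 1690 lower and 1700 higher. Within TLR4-/-, rmCIRP added to rmTGF-Beta1 changed 437 genes (2.69%), 183 lower and 254 higher, against 0 for rmCIRP alone. Within WT it changed 6859 genes (42.2%). One library of this set, TLR4-/- rmCIRP + rmTGF-Beta1 replicate 3, stood apart from its replicates, and without it 4548 genes were called for the genotype difference. The 2 contrasts shared no library, and no source says whether their cells came from the same pools. Of the 2333 genes lower without rmTGF-Beta1, 2062 (88.4%) had the same sign with it and 1144 were called with that sign, beside 10.4% called lower among all genes tested. Of the 2780 higher genes, 2487 (89.5%) had the same sign and 1130 were called, beside 10.5%. The genes called in both, 2293, made up 44.8% of the calls without and 67.6% of the calls with rmTGF-Beta1. Across the genes called without rmTGF-Beta1 the differences of the 2 sets had a Pearson r of 0.89, and across all genes tested one of 0.77, a description across genes, which are not independent replicates.

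By list, the interferon and cytokine differences were called in both sets, while fewer contractile and matrix genes were called in the second. Interferon-stimulated genes were lower for 35 of 36 with a median of -4.88, the GTPases for 15 of 16, the CC chemokines for 10 of 16 and MHC class I genes for 21 of 22. Contractile genes were higher for 4 of 25 (median 0.14), against 19 without rmTGF-Beta1, collagens for 5 against 15, sterol and fatty acid synthesis genes for 12 against 18, and NRF2 targets were lower for 3 against 16. None of the 12 called oxidative phosphorylation genes and none of the 11 called ribosomal genes was called with the same sign in the second set. The test of the change itself, a difference between the 2 sets for each gene, called 6 genes by edgeR (0.0369%), with 1709 at an unadjusted p under 0.05 (10.5%), so for nearly all of the genes in these lists a change between the sets was not shown. The 6 were Abhd17b, Cdk11b, Fbxl14, Gm45716, Mmp9 and Wnt9a, and 52 were called without the library that stood apart. Mmp9, a gelatinase of macrophages and stimulated fibroblasts, had a difference of -1.06 without and -2.08 with rmTGF-Beta1.

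**Figure D5:**
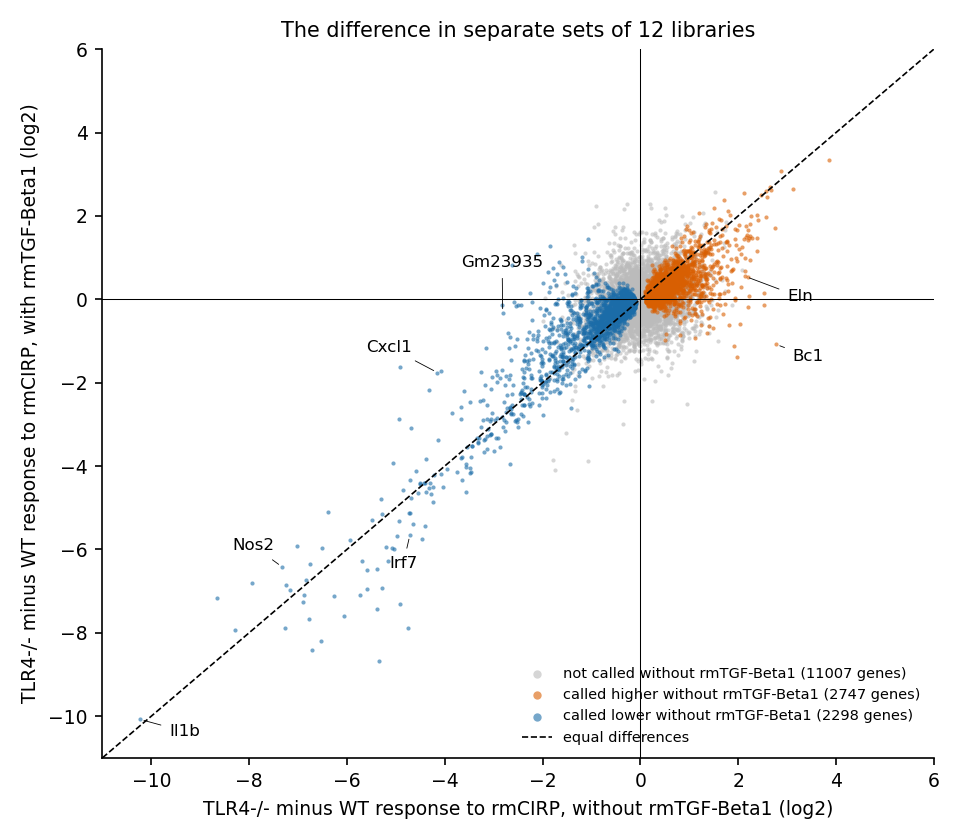
Genotype difference in the rmCIRP response without rmTGF-Beta1 (horizontal axis, log2) and with rmTGF-Beta1 (vertical axis, log2) for the same 16052 genes, coloured by the call without rmTGF-Beta1. The strongly lower genes lie near the diagonal in both sets.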

How the data were processed

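Total RNA of the 24 cultures was sequenced by the authors as stranded total RNA libraries. Per the study's methods reads were aligned with STAR to the mouse GENCODE annotation and counted per gene with HTSeq, whose counting option for strand is not given in the sources used here, and the submitters' processing notes name FastQC, HTSeq and the build NCBIM37 without versions. The deposited values were raw counts, 1 file per library with 55291 gene names and 5 tally lines, which were left out. No column of per-sample values was left unused (0 columns).

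Groups came from the labels. All 24 libraries were fitted in 1 model with a mean for each of 8 conditions (edgeR 4.0.16 in R 4.3.3, quasi-likelihood test, trimmed mean of M-values (TMM) scaling, edgeR's default filter), which left 16258 genes of 34285 with a count. The genotype difference, both responses and both genotype gaps were contrasts of that model. A gene was called at a Benjamini-Hochberg adjusted p under 0.1 over all genes tested. The common biological coefficient of variation was 5.71%, and standard errors came from the test's F. The test was checked on simulated counts in which 200 genes changed and the others carried no genotype or treatment effect. That check does not cover effects spread over as many genes as were called here. Printed levels are counts divided by DESeq2 size factors (normalized counts), a scale that does not correct for gene length, so genes are not ranked by level. Where a condition held 3 counts or fewer in each library the fitted change is not printed and a bound against 3 counts is given. The total of 31628081 to 35651924 reads per library limits precision for genes with few counts only, and bounds cover counting error alone.

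The gene lists, the comparison and the named genes were chosen with earlier results of these data known. Named genes were the 8 largest differences per direction averaging 50 or more normalized counts whose libraries did not overlap in WT or in TLR4-/-, up to 3 called genes per list and direction with that mean, the 8 genes the study names with Xist and Ddx3y, and 5 genes per direction by the TLR4-/- response. Those 5 were taken among called genes with that mean whose TLR4-/- rmCIRP and PBS libraries did not overlap. Rbm3 and the 6 genes named for the change with rmTGF-Beta1 were named after their values were seen. Alternatives were DESeq2 1.42.0, relative log expression (RLE) scaling or library totals in place of TMM, no filter or a mean count of at least 10, a replicate block, the compared libraries alone, a threshold of 0.05 and leaving out each library. Tables and figures were made with Python 3.11.15, pandas 2.3.3 and matplotlib 3.10.9. Promoter sequences were matched by symbol to a RefSeq table on GRCm38.p6, a different build from NCBIM37, and no coordinate of the deposited files was used.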

Additional observations from a re-analysis of the deposited data

Results flagged for a closer look

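The results below were set apart because the effect of rmCIRP differed between the genotypes by a test of the difference itself, the interaction term of the edgeR model, and no explanation of any of them was tested. Over all genes the interaction was called for 5113 genes without rmTGF-Beta1 and for 3390 genes with it, and the change between these sets was called for 6 genes. Of the 8 genes per direction with the largest differences, 5 per direction had counts that allowed a fitted value. Those with a lower response in TLR4-/- cultures were Il1b (-10.23), Ccl5 (-8.65), Cxcl10 (-8.29), Rsad2 (-7.94) and Nos2 (-7.33, all log2). Those with a higher response were Fgd2 (3.86), Lrmp (3.12), Rab3il1 (2.89), Bc1 (2.77) and Rgs18 (2.75). Each of the 10 was called in the same direction under all 21 alternative settings run, all for the contrast without rmTGF-Beta1. For Cxcl10 the values ran from -9.23 to -7.31 over those settings and for Fgd2 from 3.34 to 5.34. Bc1 differs from the other 9 in that its WT libraries overlapped. With rmTGF-Beta1 in both arms its TLR4-/- change went the opposite way. There it fell with rmCIRP from 807, 1206 and 393 to 170, 173 and 217 in TLR4-/-. In WT the same libraries had 749, 508 and 210 without and 373, 144 and 189 with rmCIRP, overlapping sets.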

How the results depend on the processing

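The count of genes with a genotype difference ran from 3991 (adjusted p under 0.05) to 5785 (only the 12 libraries compared) over the settings other than leaving out a library, and from 4237 to 5813 when 1 library was left out. DESeq2 called 4699 genes, 4600 of them among the 5113. Library totals moved the split from 54.4% to 63.2% higher (2004 lower and 3438 higher), while more genes were lower than higher with DESeq2 (2351 and 2348), with no filter (2325 and 2208), with a mean count of at least 10 (2610 and 2467) and in 7 of the 12 fits that left out a library compared, such as that without WT PBS replicate 1 (2362 and 2122). The count within TLR4-/- was 0 and became 32 by DESeq2, 149 with no filter, 29 with only the libraries compared, 1 with the replicate block, and 0 to 9 with 1 library left out. The cause was not tested. The uncalled difference of Tlr4 changed sign, to -0.000472 with a mean count of at least 10, and ran from -0.036 to 0.042 with 1 library left out. The median of the other CXC, CX3C and XC chemokines turned to 0.049 with a mean count of at least 10, which tested fewer genes, and that of the lymphocyte markers to 0 with no filter, which tested more. Of the 237 named genes 220 to 237 kept direction and side of the threshold when a library was left out, 232 with DESeq2 and 230 with no filter. Same-numbered libraries of the 4 conditions did not deviate together (mean correlation -0.0226, from -0.117 to 0.0198), so no pairing by number was seen. In the 4 conditions with rmTGF-Beta1 the mean was 0.0412, from -0.0691 to 0.369. These correlations cannot show whether same-numbered libraries shared a pool or a day. With the replicate block 5201 genes were called, 5022 of them among the 5113. The setting without TLR4-/- rmCIRP + rmTGF-Beta1 replicate 3 was chosen after seeing the data. Depth limits the genes with few counts, since 31628081 or more reads lay on genes in each library, and 3 libraries per condition limit the rest.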
